A study of Macaca mulatta with 29 samples.

Results

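Cytoplasmic ribosomal protein genes encode the proteins of the ribosome that works outside mitochondria. They were taken here as all rows of the deposited table whose human gene symbol is RPL or RPS followed by a number, with an optional A, X, Y or L and a further number, plus RPLP0, RPLP1, RPLP2 and RPSA, and without the ribosomal S6 kinases. This gave 81 of 16048 genes: 41 of the large subunit, 31 of the small subunit, 3 of the ribosomal stalk and 6 paralogs, which are second copies that resemble a main ribosomal protein gene. Expression was measured by RNA sequencing in ORMES-6, a single rhesus macaque embryonic stem cell line kept at 5% oxygen on a feeder layer of mouse embryonic fibroblasts whose division had been blocked. For 4 weeks the colonies received methanol, the vehicle, or 1 of 5 endocrine-disrupting compounds dissolved in it: the herbicide atrazine at 30 uM, the plastics monomer bisphenol A at 10 nM, the plasticizer bis(2-ethylhexyl) phthalate (DEHP) at 5 uM, the fluorinated surfactant perfluorooctanoic acid (PFOA) at 100 nM, or the organotin tributyltin chloride at 25 nM. There were 5 libraries per group and 4 for DEHP. Each group had 1 plate of its own, so effects of compound and of plate cannot be told apart, and p-values measure only the spread between samples within plates.

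A ribosome joins a small subunit, which holds and decodes the messenger RNA, to a large subunit, which forms the peptide bonds. The proteins are needed in fixed proportions, and their messenger RNAs share a tract of pyrimidines at the 5′ end through which mTOR signalling, by way of LARP1, controls their translation. Growing cells, pluripotent stem cells among them, spend a large part of their transcription on these genes. Outside the ribosome, RPL5 and RPL11 bind MDM2 when assembly fails.

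Depth relative to the deepest library, read from the steps that single reads leave in low values, ran from 14.2 to 27.2% in the bisphenol A libraries and from 41.2 to 100% elsewhere; absolute depth is unknown. The pluripotency factors POU5F1 and NANOG were at 371 to 672 and 111 to 147 FPKM over the libraries. Of 21 fibroblast markers in the table, which could report the feeder cells, 12 had a mean of at least 1 FPKM, with COL1A1 at 32.8 to 71.7 FPKM, while DCN was listed at 0 in all 29 libraries and LUM in 28. A signal from fewer cells and one from less RNA per cell cannot be told apart in such bulk samples.

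The ribosomal protein genes were among the most abundant transcripts. FPKM counts fragments scaled by gene length and by the mapped fragments of the library. Levels of different genes are set side by side here as a description only, since the assignment of reads with several matches is not stated. In each library the 81 genes made up 21.1 to 30.2% of all summed FPKM. Over all libraries 54 members had a mean of at least 1000 FPKM and 76 a mean of at least 100 FPKM, and 37 of the 50 highest genes of the table were members. Among the highest were RPS27 (Entrez 6232), a zinc-binding small-subunit protein, with a mean of 5492 FPKM and libraries from 3747 to 9286; the stalk protein RPLP2 (Entrez 6181) with 5105 FPKM; RPL41 (Entrez 6171), a very short peptide, with 4855 FPKM; and RPS26 (Entrez 6231), which sits at the exit of the messenger RNA channel, with 3863 FPKM. Their ranges over the libraries overlapped, so the order among these 4 rests on means alone.

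**Figure D1:**
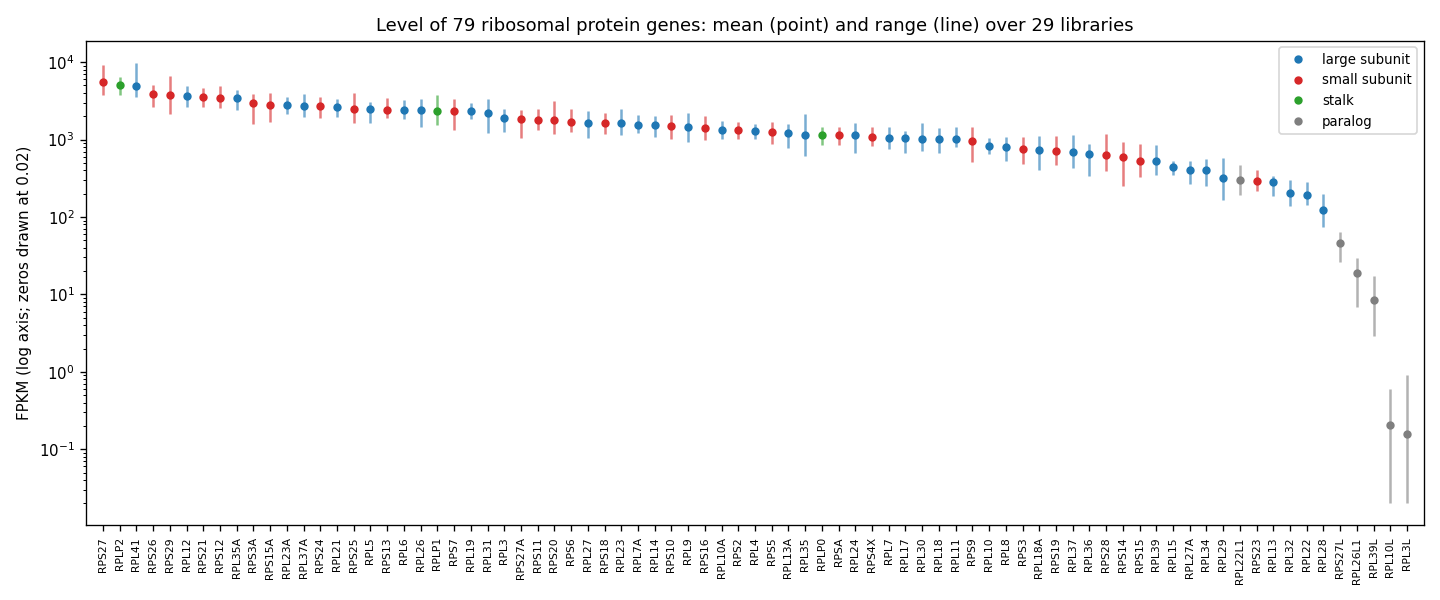
FPKM on a log axis of 79 ribosomal protein genes, ordered by mean; points are means and lines the lowest to highest of 29 libraries, and zeros are drawn at 0.02. The main genes span from 5492 (RPS27) to 123 FPKM (RPL28), and 5 of the 6 paralogs lie below all of them.

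In the large subunit, RPL3 and RPL10, both close to the site of peptide bond formation, had mean levels of 1873 and 828 FPKM. The 5S partner proteins RPL5 and RPL11 had 2484 and 1009 FPKM. Further members included RPL26, at the exit of the peptide tunnel, with 2416 FPKM, RPL13A with 1198 FPKM, and RPL39, a small protein of the exit tunnel, with 529 FPKM. The lowest main gene was RPL28, with 123 FPKM. In the stalk, which recruits the elongation factors, RPLP2 and RPLP1 had 5105 and 2364 FPKM and their anchor RPLP0 1145 FPKM.

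In the small subunit, RPS6, the substrate of the S6 kinases, had a mean of 1670.3 FPKM, and RPS27A, which is made as a fusion with ubiquitin, 1824 FPKM. RPS3, at the entry of the messenger RNA channel, had 765 FPKM, RPSA 1137 FPKM and the X-linked RPS4X 1094 FPKM. RPS19, the gene most often mutated in Diamond-Blackfan anaemia, had 710.4 FPKM. The lowest of this subunit was RPS23, at the decoding centre, with 289 FPKM.

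The paralogs were spread over a wider range. RPL22L1, the copy of RPL22, had a mean of 301 FPKM (189.6 to 475 over the libraries), above the 193 FPKM of RPL22 itself, and the 2 ranges overlapped. RPS27L, the copy of RPS27, had 46.6 FPKM (25.9 to 64.9), RPL26L1 18.6 FPKM (6.94 to 29.5) and RPL39L 8.35 FPKM (2.88 to 17.2). RPL10L and RPL3L, copies known for testis and for heart and skeletal muscle, had means of 0.203 and 0.158 FPKM and were listed at 0 in 8 and 5 libraries. These 2 were the only members below the mean of 1 FPKM required for testing, so 79 were tested. Reads of 50 nt can match a gene, its paralog and processed copies, and the sources used here do not say how such reads were assigned, so the split between a gene and its paralog is uncertain.

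Within groups the members varied more than most genes, and largely together. On the log2(FPKM + 1) scale, the SD within groups had a median of 0.274 over the 79 members, against 0.179 over the 11080 genes tested. Over the 155 other genes at or above the 10th percentile of the members' mean level it was 0.201. The largest SDs were those of RPL35 (0.64) and RPS14 (0.566), followed by RPL29, RPS29 and RPS15 at 0.517, 0.491 and 0.487. Among the steadiest members were RPL4 (0.136), RPL6 (0.149), RPL15 (0.157) and RPL10 (0.174). One principal component held 71.8% of the variance of the members around their group means, and the next held 11.1%. Across the 29 libraries, the deviation of a member from its group mean was correlated with that of the median member at a median Pearson r of 0.84; r was above 0.5 for 71 members, above 0.8 for 44 and below 0 for none. This is a description: the libraries share their scaling, and each member is itself part of the median. RPS16, RPS2 and RPL13A followed the median most closely (r of 0.97, 0.97 and 0.96). RPL5 and RPL6 stood apart, with r of 0.026 and 0.085.

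No ribosomal protein gene passed the test against vehicle for any compound. Differences are given as log2 fold changes of FPKM + 1, tested by limma over all 11080 genes with Benjamini-Hochberg adjustment and called at an adjusted p under 0.05. For each of the 5 compounds 0 of 79 members were called, where over all genes tested 0% higher and 0.19% lower were called for atrazine, 0% higher and 0% lower for bisphenol A, 0% higher and 0.00903% lower for DEHP, 0% higher and 0.162% lower for PFOA and 0.199% higher and 1.05% lower for tributyltin. A count of 0 in 79 is thus near the background and is not particular to these genes. At an unadjusted p under 0.05 there were 2 members lower with bisphenol A and 0 in either direction with the other 4 compounds, while over all genes tested 5.17% with bisphenol A and 5.79 to 10.5% with the others were under it. This fit leaves the differences between replicate numbers, described below, in the spread. In it the half-width of the 95% interval of a member's log2 fold change had a median of 0.347 (0.368 for DEHP), so it could not resolve smaller differences. The interval is not adjusted over genes, so larger differences can go uncalled too, as did -0.35 for RPL34 with bisphenol A. With the replicate number as a block 0 members were called too. At an unadjusted p under 0.05 by limma that fit had 8 members lower with bisphenol A and 2 lower with atrazine. It had 2 higher with PFOA, 1 higher with tributyltin and 0 with DEHP. The shares of all genes under it in that fit are not given here. The 5 comparisons share the vehicle libraries.

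The medians of the 79 log2 fold changes lay on either side of 0. The median was 0.11 with PFOA, where 75 of 79 members were above 0, 0.052 with DEHP (58 above 0) and 0.034 with tributyltin (49 above 0). It was -0.074 with atrazine, where 59 members were below 0, and -0.13 with bisphenol A, where 76 were. Over all genes tested the corresponding medians were between -0.0173 and -0.00456. The medians of the large and the small subunit were 0.11 and 0.064 with PFOA and -0.12 and -0.13 with bisphenol A. The members varied together, so the 79 signs are not independent. Under quantile normalization the medians with atrazine and bisphenol A were 0.024 and 0.0033, on the other side of 0, and scaling without the members gave 0.0061 for atrazine.

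**Figure D2:**
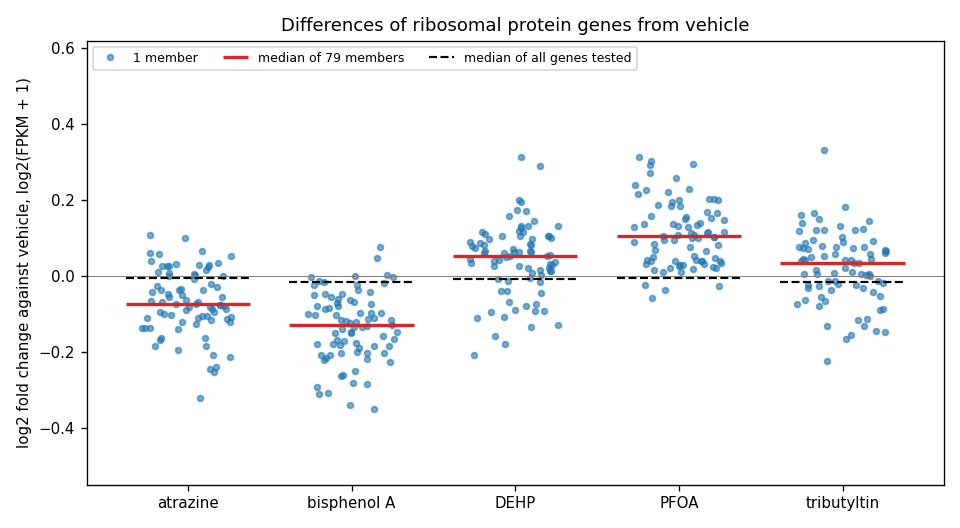
Log2 fold change against vehicle (vertical axis) of the 79 tested members for each compound; points are members, red bars their median and dashed bars the median of the 11080 genes tested. The red bars run from -0.13 (bisphenol A) to 0.11 (PFOA), and 0 points passed the test.

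The libraries behind these medians overlapped in every comparison. In order of replicate number, the median member had log2(FPKM + 1) values of 10.47, 10.60, 10.10, 10.07 and 10.61 in vehicle. With PFOA the values were 10.58, 10.22, 10.38, 10.62 and 10.58, and with DEHP 10.52, 10.33, 10.31 and 10.48. With bisphenol A they were 10.65, 10.01, 10.43, 10.04 and 10.22, a range nearly as wide as that of all 29 libraries. Atrazine gave 10.62, 10.05, 10.30, 10.06 and 10.59 and tributyltin 10.73, 10.27, 10.15, 10.38 and 10.55. Group means ± SD ran from 10.27 ± 0.271 (n = 5, bisphenol A) to 10.48 ± 0.169 (n = 5, PFOA), with 10.37 ± 0.266 (n = 5) in vehicle. The gap between the outermost group means was smaller than the SD within vehicle and within bisphenol A and larger than that within PFOA. The sign of the median hung on single libraries for 3 compounds: leaving out 1 library at a time gave -0.073 to 0.10 for tributyltin, -0.15 to 0.0082 for atrazine and -0.019 to 0.11 for DEHP. The libraries whose removal turned the sign were vehicle replicates 3 and 4 for DEHP, vehicle replicate 2 and atrazine replicate 4 for atrazine, and vehicle replicates 3 and 4 and tributyltin replicates 1 and 5 for tributyltin. With bisphenol A the median stayed below 0 when any 1 library was left out, from -0.25 without bisphenol A replicate 1 to -0.052 without vehicle replicate 2. With PFOA it stayed above 0, from 0.021 without vehicle replicate 4 to 0.17 without vehicle replicate 2.

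**Figure D3:**
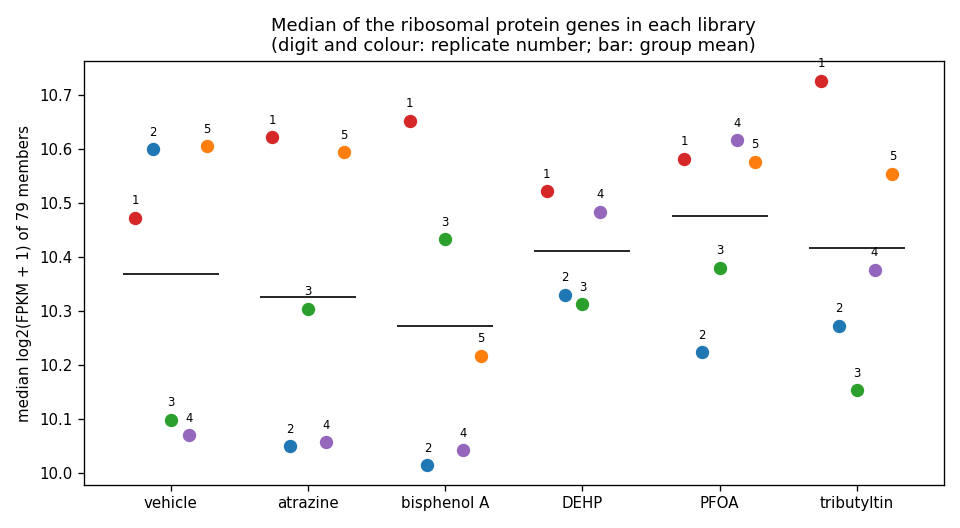
Median log2(FPKM + 1) of the 79 members in each of 29 libraries by group; digits and colours give the replicate number and bars the group mean. Number 1 is highest in atrazine, bisphenol A, DEHP and tributyltin, number 5 in vehicle and number 4 in PFOA, and all groups overlap.

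With bisphenol A the smallest p-values were those of RPS27L, RPL34, RPS23, RPS21 and RPS27A. RPS27L had 48.4, 37.6, 44.1, 25.9 and 35.2 FPKM in replicates 1 to 5, against 58.2, 51.6, 40.1, 39.6 and 46.6 FPKM in vehicle. The ranges overlapped, and replicate 4 was the lowest of all 29 libraries for this gene. On the log2 scale the difference was -0.31 (SE 0.14, adjusted p = 0.929 by limma), and its unadjusted p was 0.0375. RPL34 (Entrez 6164), a large-subunit protein, had 462, 279, 377, 254 and 279 FPKM against 510.5, 453, 349.9, 338 and 427 FPKM. The groups overlapped, with bisphenol A replicates 2, 4 and 5 below all vehicle libraries, and the difference was -0.35 (SE 0.16, adjusted p = 0.929 by limma). RPS23, RPS21 and RPS27A had log2 fold changes of -0.26, -0.28 and -0.31 and adjusted p from 0.943 to 0.963 by limma. The depths of the bisphenol A and vehicle libraries did not overlap, so compound and depth cannot be told apart here; with depth as a covariate the median of the members was -0.61 and 0 were called.

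With PFOA the members with the smallest p included RPL7, RPS20, RPL31 and RPL6. RPL7, a large-subunit protein, had 1335, 1053, 1113, 1431 and 965 FPKM against 1012, 1150.3, 957, 958 and 1014 FPKM in vehicle. PFOA replicates 1 and 4 lay above all vehicle libraries and the other 3 within the vehicle range. The log2 difference came to 0.20 (SE 0.12, adjusted p = 0.984 by limma). PFOA replicate 4 stood apart for RPL41, at 9833 FPKM against 4408 to 5103 FPKM in the other PFOA libraries and 3786 to 6356 FPKM in vehicle. RPS20, RPL31 and RPL6 had log2 fold changes of 0.30, 0.30 and 0.16, each with an adjusted p of 0.9996 by limma.

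With tributyltin RPL11, RPL31, RPL10 and RPL7A were among the members with the smallest p. RPL11, the MDM2-binding protein, had 1049, 959, 816, 901 and 954 FPKM against 1116, 1400.2, 1051, 797 and 1175 FPKM in vehicle. The vehicle range enclosed the tributyltin range, with vehicle replicate 2 the highest and replicate 4 the lowest of these 10. This made a log2 difference of -0.22 (SE 0.12, adjusted p = 0.562 by limma). RPL31 (Entrez 6160), at the end of the exit tunnel, had 3371, 2225, 2373, 2207 and 2098 FPKM against 2531, 1765, 1785, 1759 and 1861 FPKM. In both groups replicate 1 was the highest, and only vehicle replicate 1 reached into the tributyltin range. Here the log2 difference was 0.33 (SE 0.21, adjusted p = 0.63 by limma). RPL10 and RPL7A had 0.16 and 0.12 on the same scale, each short of the threshold. Tributyltin and vehicle were the only comparison with vehicle in which every pair of same-numbered libraries deviated together over all genes; with the replicate number as a block 0 members were called too, where 1.06% of all genes were called higher and 2.73% lower.

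With atrazine the members with the smallest p were RPL11, RPS4X, RPL39L, RPL22L1 and RPS12, and with DEHP they were RPL10, RPL11, RPL31, RPL7A and RPL26L1. RPL11 had 1029.7, 974, 826, 814 and 989 FPKM with atrazine, which differed from vehicle by -0.24 (SE 0.12, adjusted p = 0.748 by limma) on the log2 scale, and 1050.2, 1008, 889 and 839 FPKM with DEHP, at -0.21. Both sets of values lay within the vehicle range of 797 to 1400.2 FPKM. RPS4X had 1030.1, 1058, 814, 823 and 1206 FPKM with atrazine against 1219, 1443, 1095, 839.5 and 1314 FPKM in vehicle. The groups overlapped, with atrazine replicates 3 and 4 the lowest, and the log2 difference was -0.25 (SE 0.14, adjusted p = 0.769 by limma). RPL39L, RPL22L1 and RPS12 had -0.32, -0.25 and -0.20 with atrazine. With DEHP, RPL10, RPL31, RPL7A and RPL26L1 had 0.20, 0.31, 0.17 and 0.29, with adjusted p of 0.714 to 0.823 by limma.

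The compounds were also compared with each other in 10 pairs, at doses that differ, each pair adjusted over all genes. Fitted without a replicate block, 0 of 79 members were called by limma in any pair. Over all genes tested the shares called higher and lower in the first-named compound were 1.6% and 0.903% for bisphenol A against tributyltin, 0.677% and 0.289% for atrazine against tributyltin, 0.253% and 0.226% for DEHP against tributyltin, 0.0451% and 0.117% for PFOA against tributyltin, 0.0181% and 0.117% for atrazine against bisphenol A, 0.0451% and 0.00903% for bisphenol A against DEHP, and 0% for atrazine against DEHP, atrazine against PFOA and DEHP against PFOA. Likewise 0 of 79 members passed in the comparison of vehicle with the mean of the 5 compounds (0.253% of all genes higher and 0% lower). The F test for any difference among the 6 groups also called 0 of 79, against 1.25% of all genes tested; the smallest adjusted p of a member was 0.519, and at an unadjusted p under 0.05 there were 0 members and 1218 of all 11080 genes. The pair furthest apart was bisphenol A and PFOA, with a median of -0.23, 77 of 79 members below 0 and 17 at an unadjusted p under 0.05, as were 10.8% of all genes tested. Over all genes in this pair 0.135% were called higher and 0.135% lower with bisphenol A. RPS27L had the smallest p, with 56.7, 43.8, 50.9, 55.2 and 50.2 FPKM with PFOA against the bisphenol A values given above and a log2 fold change of -0.44 (95% interval -0.73 to -0.15, adjusted p = 0.203 by limma). RPL34 and RPS3A followed, with -0.48 and -0.47. PFOA and bisphenol A also differ in depth without overlap. With the replicate number as a block there were 4 calls over the 10 pairs, RPS27L and RPL34 among them, given further below. All same-numbered libraries deviated together (r over 0.1) for atrazine against bisphenol A, atrazine against tributyltin, bisphenol A against DEHP and DEHP against tributyltin. With the block 0 of 79 members were called in these. Of all genes 0.217% were called higher and 0.325% lower, 1.37% and 0.65%, 0.135% and 0.0271%, and 0.551% and 0.578%, in that order.

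Many members differed between replicate numbers across the groups. The titles number the libraries of every group from 1, and what a number stands for is not in the labels. In a fit with group and replicate number, the F test over the numbers called 51 of 79 members (64.6%), against 45.3% of all genes tested (limma, adjusted over 11080 genes). The difference reached many genes of the table, not the members alone. By class these were 28 of 41 large-subunit genes, 19 of 31 small-subunit genes, 1 of 3 stalk genes and 3 of 4 tested paralogs. Of the 51, 50 were above their own mean at number 1 and 43 had their highest fitted level there, while over all genes called 32.7% had theirs at number 1. The median member was 0.26 log2 units above the mean of the 5 numbers at number 1 and 0.09 above at number 5, and -0.10, -0.10 and -0.12 at numbers 2, 3 and 4.

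**Figure D4:**
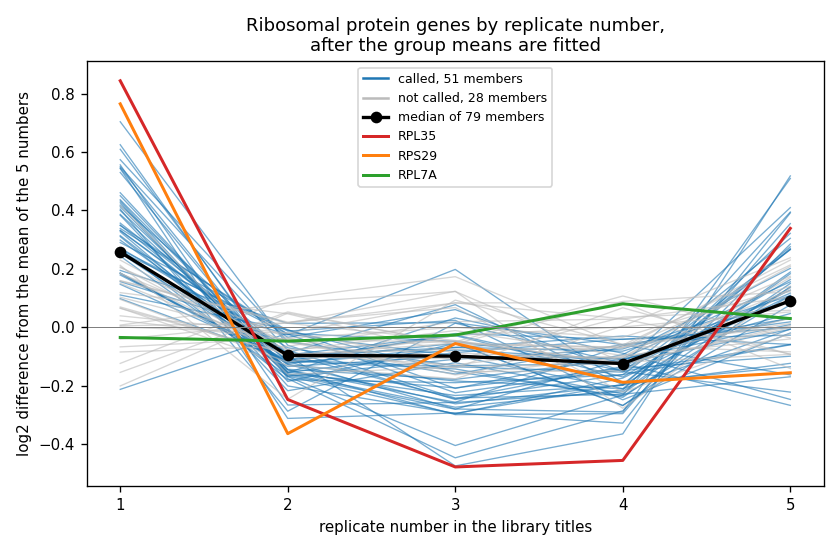
Fitted log2 difference from the mean of the 5 replicate numbers (vertical axis) by replicate number, after group means; each line is 1 of 79 members, blue where the F test over numbers called it. The median (black) is 0.26 at number 1 and -0.12 at number 4; RPL35 and RPS29 have the widest span and RPL7A the narrowest.

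RPL35 (Entrez 11224), a large-subunit protein at the tunnel exit, showed the widest span. It had 1839.9, 1466, 624.6, 651 and 1400.2 FPKM in vehicle replicates 1 to 5, 1855, 732, 798, 652 and 1503 with atrazine and 2115, 666, 884, 612 and 996 with bisphenol A. With DEHP it had 1747, 952, 799 and 949 FPKM, with PFOA 1832, 893, 823, 1173 and 1453 and with tributyltin 2146, 869, 698, 768 and 1400.2. Replicate 1 was the highest in all 6 groups, about as high in each, and its 6 libraries all lay above the other 23. Its fitted differences from the mean over numbers 1 to 5 were 0.84, -0.25, -0.48, -0.46 and 0.34 (adjusted p = 1.61e-06, limma F test).

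RPS29 (Entrez 6235), a zinc-binding protein of the small subunit, shared the high replicate 1 and not the high replicate 5. It had 5963, 2902, 2847, 3011 and 3288 FPKM in vehicle, 5218, 2531, 4244, 2708 and 3541 with atrazine and 6042, 2559, 3401, 2150.5 and 2400.1 with bisphenol A. The values were 6408, 2833, 3423 and 3518 FPKM with DEHP, 6372, 2749.6, 3439.7, 4926 and 3327 with PFOA and 6707, 3209.7, 3504, 3214 and 3583 with tributyltin. The number-1 libraries, from 5218 to 6707 FPKM, all lay above the other 23, the highest of which was PFOA replicate 4 (adjusted p = 3.23e-06, limma F test). RPS25, RPL37 and RPS15 followed in order of p, with adjusted p of 3.48e-06, 4.36e-06 and 1.01e-05. In RPS15 both ends were high, at 0.54 for number 1 and 0.39 for number 5, whereas RPS25 had 0.57 and -0.27. For 9 members, RPL28, RPL29, RPL31, RPL35, RPL37, RPL39, RPLP1, RPS25 and RPS29, the number-1 library was the highest in each of the 6 groups; 3.17% of all genes tested show this, and 9 of 79 members are 11.4%.

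Other members departed from this pattern. RPS3 was the 1 called member below its mean at number 1 (-0.21) and was highest at number 5 (0.41, adjusted p = 0.0121). The 28 members that were not called included RPL5, RPL11, RPSA, RPS6, RPL3 and RPL4, and the narrowest spans were those of RPL7A and RPL41, with adjusted p of 0.81 and 0.901. Some libraries went against their number: in vehicle replicate 2 the median member was 10.60, level with replicate 5, and in PFOA the highest median was that of replicate 4. Depth differed between the numbers. Its mean was 61.8% of the deepest library at number 1, 75.8% at number 2, 66.0% at number 3 and 64.3% at number 4. At number 5, which has no DEHP library, it was 41.1%. Over the 29 libraries the deviations of the median member and of depth from their group means had a Pearson r of -0.39, given as a description. With the median fibroblast marker r was 0.33 and with the median pluripotency marker 0.28. The summed FPKM of the 12 fibroblast markers averaged 391 at number 1 and 368 to 397 at the other numbers. The part of depth and of feeder RNA in the difference between numbers was not tested.

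**Figure D5:**
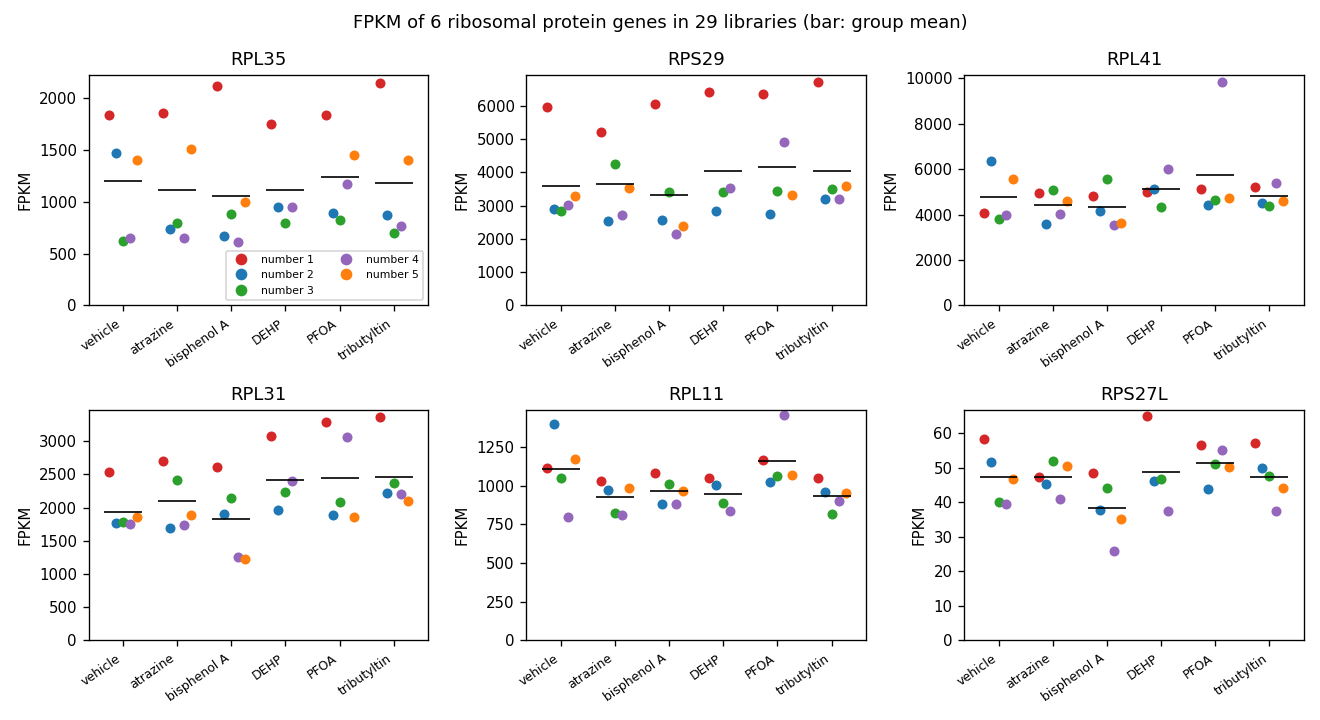
FPKM (linear axes from 0) of RPL35, RPS29, RPL41, RPL31, RPL11 and RPS27L in each library by group; colours give the replicate number and bars the group mean. Number 1 is highest in all 6 groups for RPL35, RPS29 and RPL31, and RPL41 has 1 library, PFOA replicate 4, at 9833 FPKM.

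The balance among the members was described by subtracting the median member of the same library. This removes the shared shift from members that follow the median and adds it to those that do not. The SD within groups went from 0.149 to 0.265 for RPL6 and from 0.205 to 0.306 for RPL5. Among the members whose group means then ranged most widely for their spread were RPS21, RPS20, RPL21 and RPLP0; they were picked for this, so no test is given. RPS21 stood 1.22 log2 units above the median member with bisphenol A and 1.505 with atrazine, with 1.40 in vehicle. RPS20 stood 0.58 above it with PFOA and 0.28 with bisphenol A. The stalk protein RPLP0 was -0.087 with bisphenol A and -0.26 in vehicle. The ranges of the group means were 0.29, 0.30 and 0.23 for these 3, beside SDs within groups of 0.131, 0.16 and 0.131.

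Some ribosomal protein genes have symbols that fall outside the rule. FAU, which encodes RPS30 fused to a ubiquitin-like protein, had 534 ± 158 FPKM in vehicle (SD, n = 5). It was among the 10 genes most like the median member, by the correlation of deviations from group means over 29 libraries (r = 0.93). These 10 also held FOXH1, a transcription factor of NODAL signalling, with r = 0.94. Further ones were the copper chaperone ATOX1, FAM64A, the respiratory chain subunit NDUFA7, the ATP synthase subunit ATP5G2, TMEM205, the mitochondrial ribosomal protein MRPL23 and DDT, with r from 0.93 to 0.94. GNB2L1, the ribosome-bound scaffold also called RACK1, had r = 0.87. RPL36AL, a paralog that the rule leaves out, had 768 to 1367 FPKM and r = 0.13. Of FAU, GNB2L1 and RPL36AL, 0 were called for any compound, where at most 1.05% of all genes tested were called in either direction.

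The genes that build and run the ribosome also gave 0 calls against vehicle for all 5 compounds. These were 54 ribosome biogenesis genes, 15 of RNA polymerase I, which transcribes ribosomal RNA, 18 translation factors and others with the same pyrimidine tract, 10 carriers and chaperones of ribosomal proteins, 20 genes of MYC and mTOR control and 70 mitochondrial ribosomal protein genes. Over all genes tested at most 0.199% were called higher and 1.05% lower for any compound. A count of 0 in lists of these sizes is thus near the background and is not particular to them. In the biogenesis list the median log2 fold change was -0.15 with DEHP and -0.12 with bisphenol A, and 0.04 and 0.072 with PFOA and tributyltin. RRP12, an assembly factor that exports both subunits, had -0.29 (adjusted p = 0.518) with bisphenol A. UTP20, of the small-subunit processome, had -0.33 (adjusted p = 0.42) with DEHP. GNL3, a nucleolar GTPase of stem cells, had -0.28 (adjusted p = 0.466) with DEHP.

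The mitochondrial ribosomal protein genes had a median of -0.14 with bisphenol A, where MRPL22 had -0.25 (adjusted p = 0.518) and MRPS18B -0.32 (adjusted p = 0.618); with the other compounds the medians lay between -0.043 and 0.04. MYCN, the MYC family gene of pluripotent cells, had a log2 fold change of 0.28 (adjusted p = 0.161) with tributyltin, and the translation repressor EIF4EBP1 one of 0.37 (adjusted p = 0.567) with atrazine. EIF4E, which binds the messenger RNA cap, had -0.29 (adjusted p = 0.92) with bisphenol A and -0.32 (adjusted p = 0.545) with DEHP. BCCIP, a chaperone of RPL23, had -0.47 (adjusted p = 0.467) with DEHP, and RNA polymerase I subunit gene POLR1A -0.23 (adjusted p = 0.511). In the list of translation factors and others with the pyrimidine tract, TPT1, the most abundant transcript of the table, had -0.23 (adjusted p = 0.967 by limma) with bisphenol A. The replicate number, in contrast, gave calls in these lists, beside 45.3% of all genes. They were 36 of 54 biogenesis genes, 49 of 70 mitochondrial ribosomal protein genes and 10 of 15 for RNA polymerase I. In the list of translation factors and others 11 of 18 were called. Of the carriers and chaperones 8 of 10 were, and 10 of 20 for MYC and mTOR control.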

How the data were processed

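RNA of 29 libraries was sequenced as 50 nt single-end reads after amplification of 100 ng with Ribo-SPIA chemistry, per the labels' protocols. The deposited table holds FPKM values per human homolog; TopHat2 2.1.1, SAMtools and Cuffdiff 2.2.1 and the mouse build GRCm38.p5 are named in the submitters' processing notes without their roles. The rhesus build and the handling of feeder reads and of reads with several matches are not given in the sources used here.

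Columns were matched to titles, and groups were taken from titles. The scale was log2(FPKM + 1), and the 11080 of 16048 genes that averaged 1 FPKM or more entered the tests. Tests used limma 3.58.1 in R 4.3.3 (mean-variance trend, all 6 groups in 1 fit, two-sided, Benjamini-Hochberg, threshold 0.05). The fit was tried on simulated data with independent noise for each gene and library. That setting lacks the variation that members and same-numbered libraries share here. Relative depth came from the steps of low values, of which 99.3% were whole within 0.1 of a step. The genes checked were kept for having several libraries at their lowest step, and the depths were fitted to such steps. That share is thus high partly by construction. The members and lists were chosen with earlier results of these data known. Named members are, per comparison with vehicle, the called ones or else the 5 with the smallest p, the 5 highest and lowest levels, the 5 largest and smallest SDs, members with set roles, and up to 2 genes of each other list, of which some are printed; a few genes are not reported by name here or in the plot of levels. Same-numbered libraries deviated together (r over 0.1 in each of 5 pairs, lowest 0.175) for tributyltin and vehicle; in the other comparisons with vehicle at least 1 pair did not.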

Additional observations from a re-analysis of the deposited data

Results flagged for a closer look

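In 17 of 264 sets, or 6.44%, a single library stood far from the others of its group (Dixon's criterion). Each set was 1 named member or family value in 1 group. Chance alone gives about 1 in 20 for independent sets that were not picked by their values. Some members were named for their large SDs and the members vary together, so that rate is no yardstick here. In 12 of the 17 sets the single library was that with replicate number 1, in vehicle, bisphenol A, DEHP or tributyltin. In bisphenol A replicate 1, the shallowest library, the values were RPL35 at 2115 FPKM against 612 to 996 in the other 4, RPL39 at 841 FPKM against 398 to 473, RPLP1 at 3663 FPKM against 1720.4 to 2061, RPS27 at 7248 FPKM against 3845 to 4637, and RPL39L at 9.8 FPKM against 5.63 to 6.18. RPL3L was at 0.900 FPKM there and listed at 0 in the other 4. Vehicle replicate 1 had RPL31 at 2531 FPKM against 1759 to 1861 and RPS29 at 5963 FPKM against 2847 to 3288. Tributyltin replicate 1 had RPL31 at 3371 FPKM against 2098 to 2373 and RPS29 at 6707 FPKM against 3209.7 to 3583. DEHP replicate 1 had RPL35 at 1747 FPKM against 799 to 952 and RPS15 at 703 FPKM against 424 to 455.

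The other 5 lay elsewhere. Atrazine replicate 5 had RPS3 at 1037 FPKM against 636 to 749 and RPS6 at 1836 FPKM against 1425 to 1544. PFOA replicate 4 had RPL41 at 9833 FPKM against 4408 to 5103. DEHP replicate 4 had RPS27A at 1391 FPKM against 1887 to 1967, a low value, and tributyltin replicate 2 had RPL5 at 3093 FPKM against 2253 to 2393.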

How the results depend on the processing

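The count of called members was 0 in each comparison with vehicle under all 25 or 26 alternatives: other pseudocounts, filters and scalings, fits on fewer groups, the replicate block, no trend, library weights, a feeder or depth covariate, leaving out each library, and only replicate numbers 2 to 4, the last chosen after seeing the data. All 640 values of named members kept their direction and stayed short of the threshold, with a lowest adjusted p = 0.109. With a depth covariate the median for bisphenol A against vehicle was -0.61; its libraries are all shallower than those of vehicle. Apart from leaving out single libraries, the sign of the median changed under some alternative for atrazine, tributyltin and bisphenol A: -0.15 to 0.024 for atrazine, -0.058 to 0.082 for tributyltin, both lowest with only replicate numbers 2 to 4, and up to 0.00327 for bisphenol A. Over the 10 pairs of compounds the count of 0 was 4 with the replicate block: RPS27L, RPL34 and RPS7 in bisphenol A against PFOA (adjusted p of 0.0242 to 0.0361 by limma, all lower, beside 1.52% of all genes) and RPL31 in bisphenol A against tributyltin (adjusted p = 0.0319, lower, beside 3.88%). Of the 5 same-numbered pairs of libraries, 4 had an r over 0.1 in the former comparison and 2 in the latter. Without a filter the count was 1, RPL10L in bisphenol A against DEHP (adjusted p = 0.045 by limma). This gene was listed at 0 in 8 libraries, among them every bisphenol A library. Relative depth was 14.2 to 27.2% with bisphenol A and 60.9 to 78.7% with DEHP. Compound and depth cannot be told apart in this call. The replicate block changed no other call. The 51 members called over replicate numbers became 47 to 59 under 5 alternatives. Limits are the 1 plate per group, the lower depth with bisphenol A, and reads that paralogs may share.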

Other observations

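Some ribosomal protein genes are common reference genes for quantitative PCR, and they differed in steadiness here. RPL13A had an SD within groups of 0.358 on the log2 scale and 1337, 1505, 882, 828.8 and 1506 FPKM in the 5 vehicle libraries. RPLP0 had an SD of 0.232 and RPS18 one of 0.203, while RPL4, the steadiest member, had 0.136 and 1109.7, 1379, 1283, 1199.9 and 1276 FPKM in vehicle. Over replicate numbers 1 to 5, RPL13A stood 0.31, -0.13, -0.26, -0.20 and 0.28 log2 units from its mean (adjusted p = 0.00246, limma F test), and RPL4 was not called (adjusted p = 0.466). These genes were chosen for this description after their values were seen.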
